A study of Mus musculus with 6 samples.

Results

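Hormone receptors (4 genes) and transcription factors of the luminal mammary epithelium (5 genes) were followed by RNAseq in tumors of the NeuT/ATTAC mouse, a model of mammary cancer with fibrosis. The genes were listed by name for their roles, by a rule that uses no measured value but with earlier results of these data known, and they are 9 of the 54532 gene IDs measured. The receptors were Esr1 (estrogen receptor alpha), Pgr (progesterone receptor), Prlr (prolactin receptor) and Ghr (growth hormone receptor). The transcription factors were Gata3, Foxa1, Elf5, Stat5a and Stat5b.

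In the mammary gland, estrogen and progesterone act through nuclear receptors in a subset of luminal cells, which signal to their neighbours by secreted factors. Gata3 and Foxa1 are the factors of luminal identity, and Foxa1 opens chromatin for the estrogen receptor. Prolactin acts through Prlr, the kinase Jak2 and the Stat5 proteins, which together with Elf5 drive alveolar differentiation and milk protein genes.

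All 6 tumors came from NeuT/ATTAC animals, made by crossing MMTV-NeuT mice (an Erbb2 transgene under the mouse mammary tumor virus promoter, FVB strain) with FAT-ATTAC mice, which came on C57BL/6 and were bred into FVB. Starting at week 6 of life, AP20187 was given at 0.4 mg/kg to every animal, controls included. This is the dimerizer that kills adipocytes in FAT-ATTAC mice and with which the study brought on mammary fibrosis. From 8 weeks of age the mice received 100 µg of either a matching IgG antibody (3 tumors) or an anti-PD-1 antibody (3 tumors), 2 injections per week. No tumor without AP20187 and no normal gland was analysed here, so the values describe fibrotic Erbb2-driven tumors, and the viral promoter that drives the transgene is itself active in hormone-responsive epithelium. The labels name separate tumor samples and do not say whether each came from a different mouse, while the study elsewhere describes tumor RNA of each group as pooled for RNAseq. Whether a library holds RNA of 1 tumor or a pool could not be settled, so "tumor" below means 1 labelled library, and SDs and p-values measure the spread between these libraries only.

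The unit was FPKM, in which read counts are scaled by exon length and library size, so that levels are per length. The values gave whole reads when multiplied by the joined length of all annotated exons of a gene, from 3327 bases for Foxa1 to 15339 bases for Prlr. The order of levels between genes rests on these lengths, and transcripts shorter than them would stand higher if scaled by their own length. Whole reads could be recovered for all 9 genes. Summed over only the genes with whole reads in all tumors, recovered reads were 21075641 to 23852764 per tumor. Depending on gene and tumor, 3 reads were worth from 0.00764 FPKM (Prlr) to 0.0410 FPKM (Foxa1). Groups were compared with limma on log2(FPKM + 1), a scale that understates the change of low genes. A gene was called when its unadjusted p was under 0.05 and its change at least 1.5-fold on this scale. The study used the same p and fold limits with DESeq2. Its supplementary list also required a minimum raw score, which was not applied here. Of 15069 genes tested, 3.9% were called higher and 4.53% lower after anti-PD-1, and none had an adjusted p under 0.05 although 1848 had an unadjusted p under 0.05. These were 587 genes higher and 683 lower, or 570 higher and 443 lower once each gene was set against the median of its chromosome. With limma voom on the recovered reads, 0 genes passed the adjusted threshold as well, while in the limma fit on FPKM 12 did without IgG replicate 1 and 1 did without IgG replicate 3.

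Of the 9 genes, Gata3, Stat5a and Stat5b, were lower after anti-PD-1 past both thresholds, and none was higher. These 3 were 37.5% of the 8 that could be tested, against 4.53% of all tested genes called lower. Pgr had a mean under 0.5 FPKM and was not tested in the same way. The median log2 fold change of the 8 tested genes was −0.62, against 0.01 for all tested genes. The groups did not overlap for 4 genes, Gata3, Foxa1, Stat5a and Stat5b, all lower after anti-PD-1, where 8.75% of all tested genes were lower and 9.3% higher without overlap. Foxa1 passed the filter of 0.5 FPKM only through the IgG group (means 0.984 and 0.124 FPKM), so its place in this count depends on the group where it is high. In RNA from whole tumors, fewer cells of a type and less RNA per cell cannot be told apart. None of the 9 genes had an adjusted p under 0.05, and with 3 tumors against 3 the exact permutation test cannot give a p below 0.1.

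**Figure D1:**
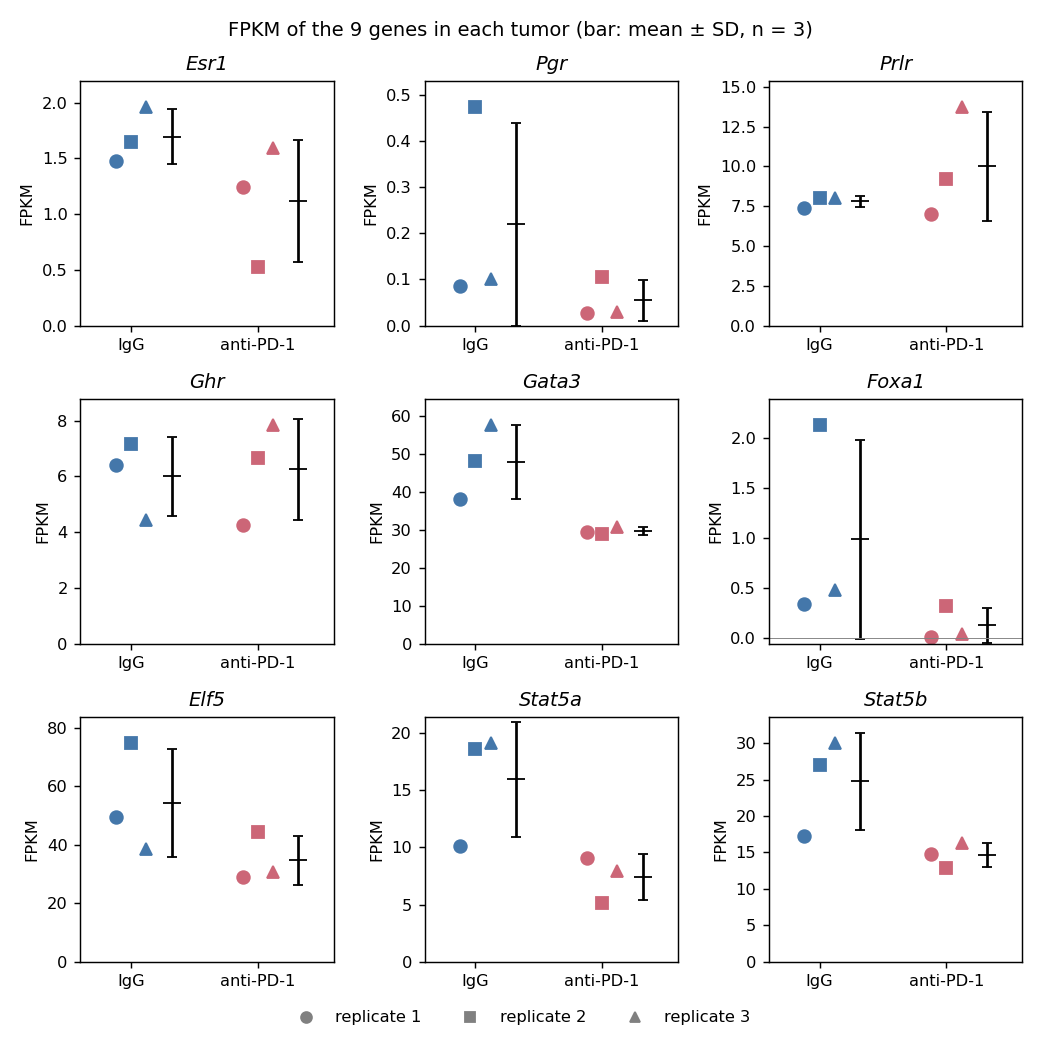
FPKM (vertical axis, linear) of the 9 genes in each tumor, with 1 panel per gene and the groups side by side. Symbols mark replicates and bars the mean ± SD (n = 3). The groups did not overlap for Gata3, Foxa1, Stat5a and Stat5b, and anti-PD-1 was the lower group in each of these 4.

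The start regions of the 3 called genes are shown because these genes were lower together, and those of Esr1 and Prlr because they hold a match to the STAT motif. Each is the 250 bases before a RefSeq start site, in GRCm38.p6, written 5′ to 3′ on the strand of the gene, with motif matches in capitals.

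Gata3, chr2:9878601-9878850, minus strand: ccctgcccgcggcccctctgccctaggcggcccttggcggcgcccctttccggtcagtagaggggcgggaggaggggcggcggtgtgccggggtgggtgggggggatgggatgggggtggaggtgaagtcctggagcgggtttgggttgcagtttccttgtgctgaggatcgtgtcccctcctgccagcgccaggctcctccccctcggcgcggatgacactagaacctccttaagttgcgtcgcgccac
Stat5a, chr11:100859406-100859655, plus strand: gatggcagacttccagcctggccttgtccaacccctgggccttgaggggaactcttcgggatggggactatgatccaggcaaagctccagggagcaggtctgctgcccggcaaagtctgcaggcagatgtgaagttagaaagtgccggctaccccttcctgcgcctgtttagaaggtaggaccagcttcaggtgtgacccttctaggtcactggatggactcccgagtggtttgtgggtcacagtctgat
Stat5b, chr11:100850582-100850831, minus strand: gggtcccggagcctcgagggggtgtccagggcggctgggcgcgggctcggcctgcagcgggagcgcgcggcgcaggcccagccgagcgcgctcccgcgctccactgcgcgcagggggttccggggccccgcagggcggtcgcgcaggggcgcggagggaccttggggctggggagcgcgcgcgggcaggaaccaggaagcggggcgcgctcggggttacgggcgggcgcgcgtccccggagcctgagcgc
Esr1, chr10:4709908-4710157, plus strand: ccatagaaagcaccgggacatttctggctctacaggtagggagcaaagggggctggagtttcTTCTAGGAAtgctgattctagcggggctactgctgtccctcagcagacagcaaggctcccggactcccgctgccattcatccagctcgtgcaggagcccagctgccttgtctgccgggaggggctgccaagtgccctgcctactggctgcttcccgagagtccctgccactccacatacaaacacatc
Prlr, chr15:10223656-10223905, plus strand: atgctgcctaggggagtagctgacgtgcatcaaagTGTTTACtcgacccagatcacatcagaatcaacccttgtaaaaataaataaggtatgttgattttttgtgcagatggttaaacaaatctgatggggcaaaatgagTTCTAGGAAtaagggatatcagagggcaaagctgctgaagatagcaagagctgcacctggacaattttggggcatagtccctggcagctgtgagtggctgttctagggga

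Windows of the 9 genes were searched on both strands for 5 motifs, and RefSeq held 16 windows for them. The letters were TTCNNNGAA for STAT factors, found in 7.04% of 32536 windows of this length, the palindromic estrogen response element in 0.0645%, the Gata factor motif AGATAA in 9.97%, the forkhead motif TGTTTAC in 3.17% and the ETS motif AGGAAGT in 7.70%. The last letters of the STAT motif can overlap the start of the ETS motif. The windows of Gata3, Stat5a and Stat5b printed above held none of these letters. The Esr1 window held TTCTAGGAA from 188 to 180 bases before the start site. The Prlr window held TTCTAGGAA from 110 to 102 bases before it and TGTTTAC from 215 to 209 bases before it. A window of Foxa1 held the reverse complement of the forkhead motif 141 to 135 bases before its start site. A match describes the letters only, and the lack of one says only that these letters are not in this window.

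Averaged over the 6 tumors, the levels ran from 44.5 ± 16.7 FPKM (SD, n = 6) for Elf5 to 0.137 ± 0.168 FPKM for Pgr. Gata3 followed Elf5 at 38.8 ± 11.7 FPKM, then Stat5b at 19.7 ± 7.01, Stat5a at 11.7 ± 5.80, Prlr at 8.90 ± 2.48 and Ghr at 6.14 ± 1.46 FPKM. Esr1 stood at 1.41 ± 0.492 FPKM and Foxa1 at 0.554 ± 0.793 FPKM. Only Ghr and Esr1 were neighbours in this order whose ranges over the tumors did not overlap. Within tumors, Elf5 was above Gata3 in 4 of 6 and Stat5a above Prlr in 4 of 6, while Gata3 was above Stat5b in 6 of 6. Elf5 and Gata3 had mean levels above 92.7% and 91.4% of the tested genes, whereas Esr1 was above 20.1% and Foxa1 above 2.05%. The tumors thus carried high levels of the alveolar factor and of Gata3 beside little estrogen or progesterone receptor mRNA.

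Among the receptors, none passed the thresholds. Esr1 (ENSMUSG00000019768, chromosome 10, 4611593 to 5005614, plus strand) encodes the nuclear receptor that binds estradiol. It was measured at 1.48, 1.65 and 1.96 FPKM in the IgG tumors (replicates 1 to 3, the order used throughout) and at 1.24, 0.522 and 1.59 FPKM in the anti-PD-1 tumors. The groups overlapped, and anti-PD-1 replicate 2 was the lowest tumor, with 173 reads against 435 to 653 in the other five. The log2 fold change was −0.37 (SE 0.24, limma adjusted p = 0.562), and −0.15 without anti-PD-1 replicate 2.

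Pgr (ENSMUSG00000031870, chromosome 9, 8899833 to 8968611, plus strand) is itself a textbook target of the estrogen receptor. It was near the limit of detection, at 0.0851, 0.473 and 0.101 FPKM in the IgG tumors and 0.0274, 0.106 and 0.0296 FPKM in the anti-PD-1 tumors. These stand for 16, 97 and 21 reads and for 6, 22 and 6 reads. One tumor, IgG replicate 2, held most of the reads, and the groups overlapped. With no filter on low values the log2 fold change was −0.19 (SE 0.13, limma adjusted p = 0.720). The median log2 fold change of all tested genes on chromosome 9 was −0.36, and of 28 genes within 5 Mb of Pgr −0.58.

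Prlr (ENSMUSG00000005268, chromosome 15, 10177238 to 10349180, plus strand) is the cytokine receptor for prolactin. Levels were 7.40, 7.99 and 8.03 FPKM in the IgG tumors and 7.04, 9.24 and 13.7 FPKM in the anti-PD-1 tumors. The IgG tumors lay close together, and anti-PD-1 replicate 3 stood above the rest. The log2 fold change was 0.28 (SE 0.23, limma adjusted p = 0.640) and 0.05 without that tumor. In the same tumor the median of chromosome 15 genes was 0.33 above their mean on the log2 scale, against −0.18 to −0.01 in the other five. After each gene was set against the median of its chromosome, the log2 fold change of Prlr was 0.12. The annotation places Gm21973 over Prlr on the same strand, so their reads are uncertain.

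Ghr (ENSMUSG00000055737, chromosome 15, 3317760 to 3583492, minus strand) is the related receptor for growth hormone, which is also abundant in fat and stroma. It was at 6.42, 7.18 and 4.44 FPKM in the IgG tumors and 4.27, 6.67 and 7.84 FPKM in the anti-PD-1 tumors. The groups covered nearly the same range, with a log2 fold change of 0.04 (SE 0.25, limma adjusted p = 0.958). Setting genes against their chromosome turned this to −0.12, and leaving out 1 tumor gave −0.13 to 0.25. Summed FPKM of 10 adipocyte markers was 4.1 to 11.2 per tumor.

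Gata3 (ENSMUSG00000015619, chromosome 2, 9857078 to 9890034, minus strand) is the zinc finger factor needed to form and keep luminal cells. It was at 38.0, 48.2 and 57.6 FPKM in the IgG tumors and at 29.4, 29.0 and 30.8 FPKM in the anti-PD-1 tumors. Every IgG tumor was above every anti-PD-1 tumor, and the anti-PD-1 tumors lay within a narrow band. The mean fell from 47.9 ± 9.77 to 29.7 ± 0.941 FPKM (SD, n = 3 each), a log2 fold change of −0.65 (SE 0.18, limma adjusted p = 0.344). Without IgG replicate 3 it was −0.51, below 1.5-fold. The exact permutation p was 0.1. The 42 tested neighbours within 5 Mb had a median log2 fold change of −0.06. In IgG replicate 3, the tumor with most Gata3, they lay 0.20 above their mean on the log2 scale, against −0.09 to −0.0037 in the other five, and the median of chromosome 2 lay 0.19 above. Set against its chromosome, Gata3 was at −0.59 and still called. Noncoding genes on both strands overlap Gata3 in the annotation, and the strand of the libraries is not given in the sources used here.

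Foxa1 (ENSMUSG00000035451, chromosome 12, 57540628 to 57546916, minus strand), the forkhead pioneer factor, was low in every tumor. It was at 0.341, 2.13 and 0.480 FPKM in the IgG tumors and 0.0117, 0.322 and 0.0380 FPKM in the anti-PD-1 tumors. The reads behind these were 25, 170 and 39 in the IgG tumors and 1, 26 and 3 in the anti-PD-1 tumors. The groups did not overlap, but IgG replicate 1 and anti-PD-1 replicate 2 were close in FPKM, and IgG replicate 2 stood far above the rest. The log2 fold change was −0.72 (SE 0.36, limma adjusted p = 0.451), and −0.33 without IgG replicate 2. On the recovered reads, limma voom gave −3.52 with an adjusted p of 0.344, a value that rests on few anti-PD-1 reads. IgG replicate 2 was the only tumor above 0.5 FPKM, so Foxa1 was tested only through the group where it is high.

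**Figure D2:**
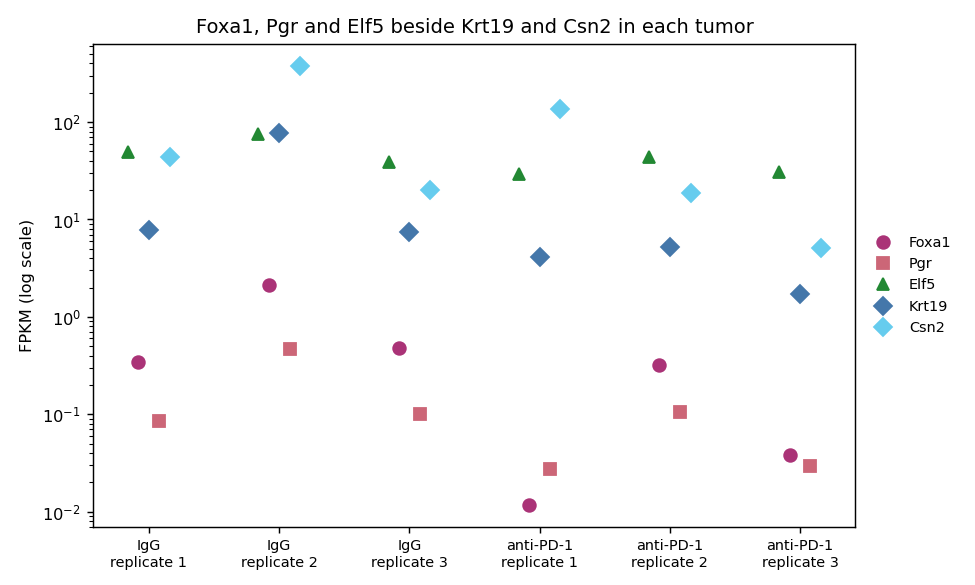
FPKM on a log axis of Foxa1, Pgr and Elf5 in each of the 6 tumors, beside the luminal keratin Krt19 and the milk protein gene Csn2; points are single tumors. All 5 genes were highest in IgG replicate 2, where Krt19 reached 77.9 FPKM against 1.70 to 7.84 FPKM elsewhere. Krt19 is 1 of 10 luminal keratin and junction markers and does not stand for them. Their sum in that tumor (2821.5 FPKM) was below those of IgG replicate 1 (3161.9 FPKM) and every anti-PD-1 tumor.

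Elf5 (ENSMUSG00000027186, chromosome 2, 103411688 to 103450989, plus strand) is the ETS factor of luminal progenitors and alveolar cells. It was at 49.5, 74.6 and 38.6 FPKM in the IgG tumors and at 29.1, 44.3 and 30.8 FPKM in the anti-PD-1 tumors. The groups overlapped through anti-PD-1 replicate 2, which lay above IgG replicate 3. The log2 fold change was −0.60 (SE 0.28, limma adjusted p = 0.433), and −0.34 without IgG replicate 2. That tumor was also highest for Foxa1, Pgr and Csn2, and its 7 luminal progenitor markers, Elf5 among them, summed to 1476.4 FPKM against 209.4 to 437.9 FPKM elsewhere. The part of this tumor's cell makeup in the differences was not tested.

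Stat5a (ENSMUSG00000004043, chromosome 11, 100859351 to 100885169, plus strand), the main mammary Stat5 protein, had the largest difference of the 8 tested genes on the log2(FPKM + 1) scale with all tumors. Foxa1 was larger with limma voom (−3.52 against −1.08) and with a pseudocount of 0.1 (−2.14 against −1.08). Foxa1 was also larger without IgG replicate 3 (−0.87 against −0.84) or anti-PD-1 replicate 2 (−0.84 against −0.78). Without the latter, Elf5 was level with Stat5a, at −0.78. Stat5a was at 10.2, 18.6 and 19.1 FPKM in the IgG tumors and at 9.10, 5.14 and 7.96 FPKM in the anti-PD-1 tumors. The groups did not overlap, although IgG replicate 1 and anti-PD-1 replicate 1 were close. The mean fell from 15.9 ± 5.02 to 7.40 ± 2.03 FPKM (SD, n = 3 each), a log2 fold change of −0.99 (SE 0.29, limma adjusted p = 0.346). Fits without 1 tumor gave −1.27 to −0.78, and the gene was past both thresholds in 6 of 6 fits.

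Stat5b (ENSMUSG00000020919, chromosome 11, 100780731 to 100850724, minus strand) is the close paralog beside it, which carries much of the growth hormone signal in other tissues. It was at 17.3, 27.0 and 29.97 FPKM in the IgG tumors and at 14.8, 12.9 and 16.3 FPKM in the anti-PD-1 tumors. The groups did not overlap, with IgG replicate 1 only just above the highest anti-PD-1 tumor. The mean fell from 24.7 ± 6.61 to 14.7 ± 1.68 FPKM (SD, n = 3 each), a log2 fold change of −0.68 (SE 0.23, limma adjusted p = 0.355). The call was lost without IgG replicate 2, IgG replicate 3 or anti-PD-1 replicate 2, where limma's unadjusted p was 0.0619, 0.0591 and 0.0649. The log2 fold change without 1 tumor ran from −0.91 to −0.53.

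Stat3, the next gene on that locus, overlaps the end of Stat5a on the other strand. It was at 44.6, 44.7 and 38.0 FPKM in the IgG tumors and 39.1, 46.1 and 35.0 FPKM in the anti-PD-1 tumors, so its groups overlapped. The ratio of Stat5a to Stat5b was 0.587, 0.690 and 0.637 in the IgG tumors and 0.616, 0.398 and 0.489 in the anti-PD-1 tumors. Of the 100-base windows of Stat5a transcripts, 3.44% also occur in Stat5b, and 4.79% of those of Stat5b occur in Stat5a. With windows of 50 bases these shares were 8.21% and 11.0%. The read length is not given in the sources used here. No Stat5a window of either length occurs in Stat3. Setting genes against their chromosome gave −1.05 for Stat5a and −0.75 for Stat5b.

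**Figure D3:**
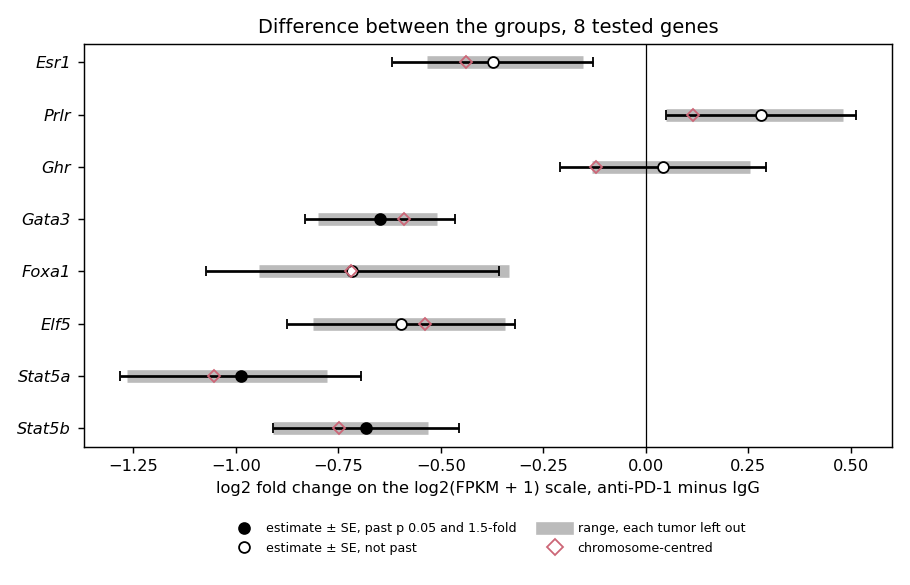
Log2 fold change of anti-PD-1 against IgG (horizontal axis) for the 8 tested genes, with SE bars, the range over fits that leave out 1 tumor (grey) and the chromosome-centred value (diamonds). Filled points mark Gata3, Stat5a and Stat5b, which passed both thresholds at −0.65, −0.99 and −0.68.

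Across the 6 tumors, Gata3 and Stat5b had the same order of levels. Pearson's r was 0.973 and Spearman's rho 1.00, with r of 0.793 after the 2 tumors farthest from the median of Gata3 were left out. The groups are separate for both genes, so this value holds the group difference, and 3 tumors a group are too few for a value within groups. Over all 36 pairs of the 9 genes, r ran from −0.38 to 0.99, and 8 pairs had an exact permutation p under 0.05 for Pearson's r before adjustment. No pair had an adjusted exact permutation p under 0.05.

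Stat5a and Foxa1 varied enough over the tumors to look for genes of like pattern among 12409 protein-coding genes. By the root mean square difference of centred log2 values over 6 tumors, the nearest to Stat5a were Runx1 (0.0972), Plekho2 (0.126) and Scarf1 (0.132). The nearest to Foxa1 were Klhl9 (0.120), Mal (0.130) and Sowahb (0.131). These are descriptions of likeness only.

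Lists of related genes (7) give the surroundings of the 9. The counts called in each list stand beside 3.9% of all tested genes called higher and 4.53% called lower. Among 12 related nuclear receptors, 10 were tested, none was called higher and 3 were called lower. Of these, the mineralocorticoid receptor Nr3c2 and the vitamin D receptor Vdr had log2 fold changes of −0.83 and −0.80, both highest in IgG replicate 2 and closer to 0 without it, at −0.46 and −0.47. The thyroid receptor Thrb did not pass, at 0.40. None of 11 tested estrogen receptor co-regulators was called. The prohibitin Phb2 had an unadjusted p under 0.05 but less than 1.5-fold change (log2 fold change 0.45).

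Of 15 estrogen and progesterone targets, 10 were tested, 1 was called higher and 1 lower. Igfbp5, which binds insulin-like growth factors in the mammary gland, fell from 2059 ± 651 to 859 ± 153 FPKM (SD, n = 3 each, log2 fold change −1.23, limma adjusted p = 0.344). The cell cycle regulator Ccnd1 rose from 51.5 ± 12.3 to 93.6 ± 20.4 FPKM (log2 fold change 0.86, limma adjusted p = 0.344). Both were past the thresholds with each tumor left out, but with no filter on low values Igfbp5 lost its call (limma's unadjusted p 0.0690). Levels of these targets differed widely, with Greb1 at 0 to 16 reads per tumor and Tff1 listed at 0 in all 6, but Xbp1 at 175 to 323 FPKM and Slc9a3r1 at 80.3 to 132 FPKM. Cited1, a cofactor of hormone-sensing cells, was at 1.01 ± 0.268 and 0.418 ± 0.00875 FPKM. On the log2(FPKM + 1) scale its change of −0.49 was under 1.5-fold and not called, while a pseudocount of 0.1 (−1.07) and limma voom (−1.22) called it lower. Every anti-PD-1 tumor was under 0.5 FPKM, so Cited1 passed the filter only through the IgG group.

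Prolactin and growth hormone signal transduction gave 1 gene called higher and 3 lower of 19 tested, with a median log2 fold change of −0.10. The kinase Jak1 fell from 28.9, 47.3 and 43.8 FPKM in the IgG tumors to 21.2, 18.9 and 20.9 FPKM in the anti-PD-1 tumors (log2 fold change −0.91, limma adjusted p = 0.344). Set against its chromosome it was −0.50 and no longer called, as the median log2 fold change of chromosome 4 was −0.40. The kinase Tyk2, on chromosome 9, likewise went from −0.60 to −0.23 and lost its call. Irs2, an adaptor of insulin and cytokine receptors, was the other gene called lower, at −0.63. Cav1, the caveolin that restrains Jak2 in mammary cells, rose by 1.10 on the log2 scale. Jak2, which prolactin and growth hormone receptors use, was at 15.5 ± 3.20 and 14.6 ± 0.985 FPKM.

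**Figure D4:**
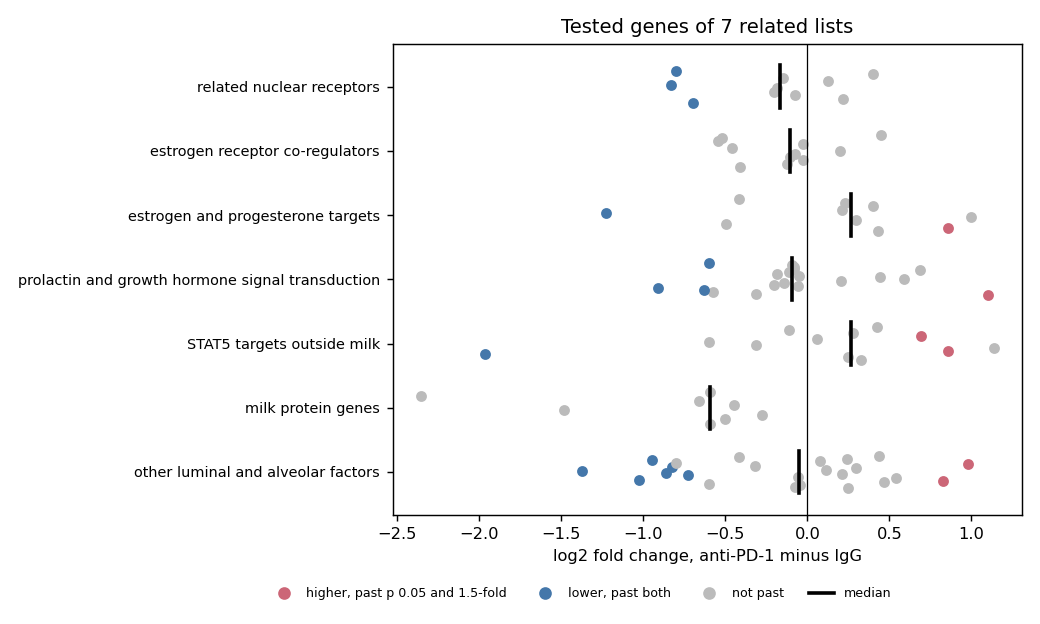
Log2 fold change of anti-PD-1 against IgG (horizontal axis) for each tested gene of 7 related lists, with called genes in colour and a bar at each median. Medians lay between −0.59 for milk protein genes and 0.26 for the estrogen and progesterone targets, and called genes appeared in both directions.

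Targets of STAT5 other than milk genes did not move one way. Of 14 listed, with Prlr and Elf5 among them, 12 were tested, 2 were called higher and 1 lower. The kinase gene Pim1 rose by 0.69 on the log2 scale and Ccnd1 by 0.86, while Btn1a1, a protein of the milk fat globule, fell by 1.96. Without IgG replicate 2, where Btn1a1 reached 111 FPKM, that difference was −1.20. The feedback inhibitors Cish and Socs2 did not pass, at 4.38 ± 1.32 and 3.25 ± 0.501 FPKM for Cish and 55.3 ± 9.96 and 50.4 ± 3.85 FPKM for Socs2 (IgG and anti-PD-1). All 8 milk protein genes had lower estimates after anti-PD-1 and none was called, with a median log2 fold change of −0.59. Without IgG replicate 2 that median was 0.11, so its direction rested on 1 tumor, and with a pseudocount of 0.1 it was −1.14. The beta-casein gene Csn2 varied from 20.3 to 378 FPKM in the IgG tumors and from 5.09 to 136 FPKM in the anti-PD-1 tumors.

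Of 24 other luminal and alveolar factors, all tested, 2 were called higher and 6 lower, beside 3.9% and 4.53% of all tested genes. Their median log2 fold change was −0.05. Notch1, which steers luminal progenitors, fell from 7.19, 11.5 and 13.5 FPKM to 3.14, 2.59 and 4.73 FPKM (log2 fold change −1.37, limma adjusted p = 0.344). Runx1, a partner of luminal differentiation and the nearest pattern to Stat5a, fell by 0.83 on the log2 scale, and Grhl1, a factor of epithelial junctions, by 1.03. Nfib, which works with Stat5 at milk genes, fell by 0.86, or by 0.46 and without a call when set against chromosome 4. Foxp1 and Spdef, factors of luminal and secretory cells, rose by 0.83 and 0.98. Tfap2b and Id2 made up the genes called lower, at −0.95 and −0.73. Notch1, Nfib, Foxp1 and Spdef were called in 6 of 6 fits that left out 1 tumor, as was Jak1, but Grhl1 in 4, Runx1 and Tfap2b in 3 and Id2 in 2. In the same fits Cav1 and Btn1a1 were called in 3 of 6, and Nr3c2, Vdr, Tyk2, Irs2 and Pim1 in 2 of 6. With no filter on low values, Nr3c2, Vdr, Irs2 and Tfap2b also lost their calls.

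Markers of the cells that express these genes moved in more than 1 direction. Of all tested genes, 3.9% were called higher and 4.53% lower, while 9.3% were higher and 8.75% lower without overlap of the groups. Summed FPKM of 10 luminal keratin and junction markers was 2236.6 to 3161.9 in the IgG tumors and 3240.7 to 4103.0 in the anti-PD-1 tumors. Gene by gene, 8 of the 10 had higher estimates (median log2 fold change 0.40), 2 were higher and 1 was lower without overlap of the groups, Krt7 was called higher (1.07 on the log2 scale) and Krt19 lower (−2.03, or −0.96 without IgG replicate 2). Of 6 tested luminal progenitor markers, 3 had higher and 3 lower estimates. The receptor gene Kit was called lower, at −0.85, and the cytokine gene Lif higher, at 0.95. The sum of 8 hormone-sensing luminal markers, which include Esr1, Pgr, Prlr and Foxa1, overlapped between groups, at 35.3 to 75.6 and 58.5 to 71.2 FPKM. Basal markers summed to 9.8 to 15.2 FPKM in the IgG tumors and 7.9 to 12.3 FPKM in the anti-PD-1 tumors. Of 7 tested, 6 had lower estimates (median log2 fold change −0.42), Krt17 was called lower at −0.66 and Mylk higher at 0.90. Fibroblast, macrophage, endothelial and T cell sums overlapped between the groups. By gene, 9 of 10 macrophage markers had higher estimates (median 0.32), with Cd68 called at 0.76, and 8 of 10 endothelial markers had lower ones (median −0.19), none of them called. Fibroblast markers were split, with 6 of 10 higher and none called. Cartilage markers summed to 225 to 288 FPKM in the IgG tumors and 325 to 361 FPKM in the anti-PD-1 tumors, with all 4 tested higher by estimate (median log2 fold change 1.38) and Col11a2 and Cnmd called. Skeletal muscle markers summed to 0.7 to 192 FPKM over the tumors, and 8 of 8 had higher estimates (median 0.72), none of them called. The part of these cell types in the differences was not tested.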

How the data were processed

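Tumor RNAseq of 3 IgG and 3 anti-PD-1 NeuT/ATTAC tumors was analysed from 1 table per tumor. The authors deposited FPKM per Ensembl gene; per the submitters' processing notes, FastQC 0.11.9, cutadapt 3.5, Bowtie2 2.4.1, RSEM 1.3.1, DESeq2 1.36.0 and R 4.1 were used with mm10. GENCODE M21 gave names, positions and exon lengths for 54495 of 54532 gene IDs. FPKM times exon length gave whole reads (within 0.1) in all tumors for 27869 of 28720 detected genes. FPKM were divided by median-of-ratios factors (1.00 to 1.01), and log2(value + 1) of genes with a mean of at least 0.5 FPKM was fitted with limma 3.58.1 in R 4.3.3 (empirical Bayes with trend, two-sided, Benjamini-Hochberg over 15069 genes). The fit was tested on simulated data. Exact permutation tests were two-sided (SciPy 1.17.1). Alternatives were another pseudocount, other filters, FPKM as deposited, quantile normalization, no trend, limma voom on recovered reads, a replicate block, chromosome centring and each tumor left out. Lists were named by up to 4 genes of smallest p, plus others called or undetected, which were chosen after their values were seen. The 9 genes and the lists were chosen with earlier results of these data known. The labels give AP20187 as biweekly and the methods as triweekly. Some genes of the lists are counted but not reported here by name.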

Additional observations from a re-analysis of the deposited data

How the results depend on the processing

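Gata3, Stat5a, Stat5b, Foxa1, Elf5, Esr1 and Prlr kept their direction under every setting that gave them a value, leave-one-out fits included. Ghr did not. Esr1 and Foxa1 gave none at a mean of at least 2 FPKM. With each tumor left out, the genes called ranged from 366 to 1001 higher and 375 to 1233 lower of all tested, and from 2 to 4 lower of the 9. Single log2 fold changes then ranged from −0.13 to 0.25 for Ghr, −0.94 to −0.33 for Foxa1, −0.81 to −0.34 for Elf5, −0.80 to −0.51 for Gata3, −1.27 to −0.78 for Stat5a, −0.91 to −0.53 for Stat5b, −0.53 to −0.15 for Esr1 and 0.05 to 0.48 for Prlr. Foxa1 was then called without IgG replicate 1, and Elf5 without IgG replicate 3 or anti-PD-1 replicate 2. List medians ranged from −0.23 to −0.09 (nuclear receptors), −0.16 to −0.0015 (co-regulators), 0.12 to 0.33 (estrogen and progesterone targets), −0.16 to −0.060 (signal transduction), 0.19 to 0.27 (STAT5 targets), −1.29 to 0.11 (milk, highest without IgG replicate 2) and −0.17 to 0.0040 (other factors). Genes called higher ranged from 1 to 2, 0 to 3, 1 to 3 and 2 to 3 for the estrogen, signal transduction, STAT5 and other factor lists, and genes called lower from 0 to 3, 0 to 2, 1 to 2, 1 to 3, 0 to 2, 0 to 1 and 2 to 7 in the order of the medians.

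Chromosome centring left 443 genes called lower, gave Ghr −0.12 and called 2 co-regulators lower. On recovered reads, limma voom called 817 of 14386 genes lower and 5 of the 9, adding Foxa1 (−3.52) and Elf5 (−0.61), moved the medians of nuclear receptors, estrogen targets and STAT5 targets to −0.35, 0.52 and 0.13, and called 1 co-regulator, 2 estrogen targets and 2 STAT5 targets lower and 1 STAT5 target higher. That fit lacked genes without whole reads, among them Esrra and Nr3c1 of the nuclear receptors and Pim1 and Cidea of the STAT5 targets. Quantile normalization gave Elf5 −0.69 with an unadjusted p under 0.05, medians of −0.16 (signal transduction), 0.19 (STAT5 targets) and −0.15 (other factors), and 2 STAT5 targets lower. A pseudocount of 0.1 gave a median of 0.46 and 2 genes lower for estrogen targets. Without a filter, 1 nuclear receptor and 0 estrogen targets (Igfbp5 lost) were lower and the STAT5 median was 0.15. At a mean of at least 2 FPKM, 1 nuclear receptor was lower and the median was −0.076. The cause of these shifts was not tested.

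Same-numbered tumors did not deviate together (r of −0.16, 0.01 and 0.19, against −0.26 to 0.24 for tumors of different number). Such values cannot settle whether the numbers pair tumors, and the labels do not say. With the replicate block, 671 of 15069 genes and 5 of the 9 were called lower, adding Foxa1 (−0.72) and Elf5 (−0.60), as were 1 nuclear receptor and 1 milk gene, and 2 estrogen targets and 2 signal transduction genes were called higher. Groups of 3 tumors limit the precision, and for Pgr and Foxa1 so does a depth of few reads.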
